A study of Homo sapiens with 6 samples.

Results

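Nuclear receptors are transcription factors, many of which are switched by small fat-soluble ligands such as hormones, vitamins, bile acids and sterols. The set described here is 39 receptor genes, picked out of the table by gene symbol. It holds the thyroid hormone, retinoid, vitamin D, liver X, xenobiotic, steroid, clock-linked and orphan receptors, and leaves out the PPAR, HNF4 and FXR genes. These are 39 of the 27685 genes in the table. Of the 39 genes, 29 had enough reads to be tested, among 14640 tested genes in all.

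Caco-2 is an established human colorectal tumour line whose cells take on features of absorptive enterocytes. The study compared polyA RNA of cells carrying hFABP1as, a construct antisense to the fatty acid carrier gene FABP1 (genotype FABP1_knockdown), with that of cells carrying the empty vector pcDNA3 (genotype WT). There were 3 libraries in each group. Cells of both groups grew in the same serum-containing medium, and the labels name no added hormone or receptor ligand. They do not say which promoter drives the construct, how many transfected lines or clones stand behind a group, or whether each library is a culture of its own. The p-values therefore speak only to the spread among these 6 libraries, which may be technical, and a difference between lines cannot be told apart from an effect of the construct.

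The gene targeted by the construct was checked first. The FABP1 count was no lower under the antisense label than without it. It had 134, 147 and 122 CPM (counts brought to the same depth in each library) in the libraries labelled FABP1 antisense, against 138, 102 and 121 CPM in the vector control libraries. The groups overlapped (log2 fold change 0.16, SE 0.12, adjusted p = 0.268). No source used here says if reads were counted by strand. Reads of the construct's own RNA may therefore be in this count, and their part in it was not tested. The group labelled antisense is called by its label, and every rise or fall given here is of the libraries so labelled relative to the vector control. Total counts were 41768687 to 55153051 in the libraries labelled antisense and 40351394 to 57979037 in the vector control libraries. At this depth 3 counts over a group equal 0.0211 CPM in the libraries labelled antisense and 0.0212 CPM in the vector control, limits that cover counting error only. The summed level of epithelial markers was high in every library. It was 16283 to 19149 CPM in the libraries labelled antisense and 14454 to 17744 CPM in the vector control. Much of that sum was KRT8, with means of 9447 and 8666 CPM in those groups, and KRT18, with 4427 and 3661 CPM. In the vector control LGALS4 and KRT20 were low, at means of 0.455 and 0.587 CPM. They averaged 12.8 and 5.35 CPM in the libraries labelled antisense. CDX1 was the marker of that list with too few reads to be tested.

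Most nuclear receptors act as pairs. A ligand-bound receptor such as VDR or a retinoic acid receptor usually binds DNA together with a retinoid X receptor (RXR). Steroid receptors such as the glucocorticoid receptor wait in the cytoplasm on chaperones. Orphan receptors such as the COUP transcription factors act without a known physiological ligand, often as repressors. In the intestine the vitamin D, liver X and xenobiotic receptors tie nutrient, sterol and drug handling to transcription.

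The receptors did not move one way. Of the 29 tested, 13 were higher and 8 lower in the libraries labelled antisense by edgeR's quasi-likelihood test, with p adjusted by Benjamini-Hochberg over all tested genes and a threshold of 0.05, and 8 did not pass. This is 72.4% of the tested receptors, against 55.0% of all tested genes. Higher calls made up 44.8% of the receptors and 27.7% of all genes, and lower calls 27.6% and 27.3%, so the share of lower calls was close to that of all genes. The 2 groups did not overlap in 22 receptors, or 75.9%, against 62.7% of all genes. A called change of at least 2-fold was found in 8 receptors, 6 higher and 2 lower, or 27.6% against 14.9% of all genes. The median log2 fold change was 0.30 over the tested receptors and 0.01 over all genes. Means are given with the SD of the 3 libraries of a group throughout. In such bulk RNA, fewer cells expressing a gene and less RNA per cell cannot be told apart.

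**Figure D1:**
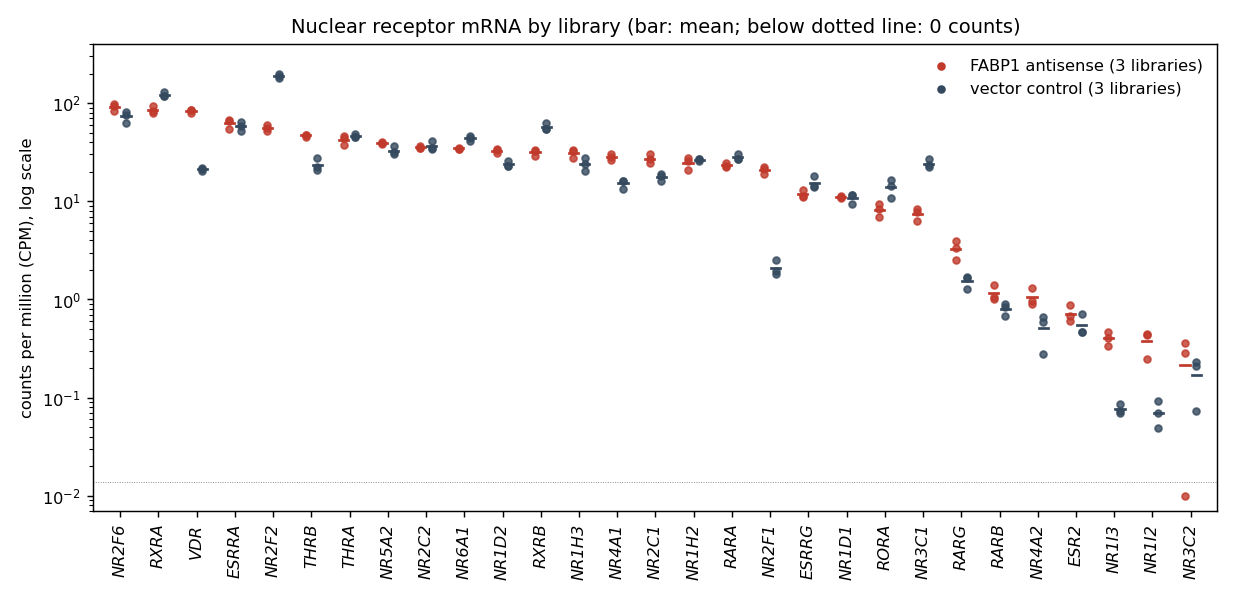
Level of the 29 tested nuclear receptors in each library, in CPM on a log scale, with 3 libraries labelled FABP1 antisense left of 3 vector control libraries for each gene and short bars for means. The libraries labelled antisense lie below the vector control for NR2F2 and NR3C1 and above it for VDR and NR2F1, and the point under the dotted line is a library with 0 counts.

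The COUP transcription factor genes NR2F1 (COUP-TFI, gene ID 7025) and NR2F2 (COUP-TFII, gene ID 7026) are close relatives that bind the same kind of DNA site. NR2F2 sits on chromosome 15 and NR2F1 on chromosome 5. They are shown with promoter sequence because they are the receptors with the largest rise and the largest fall at a mean level of at least 1 CPM, and they moved in opposite directions. Each sequence is a RefSeq window on GRCh38.p14, plus strand, running 250 bases before to 50 bases after an annotated start. NR2F1 window 1 is chr5:93582972-93583271 and window 2 is chr5:93586849-93587148. NR2F2 window 1 is chr15:96332315-96332614 and window 2 is chr15:96333515-96333814. Capitals mark a TATA box (TATAAA) in NR2F1 window 2 and a GC box (GGGCGG) in NR2F2 window 2, on either strand. In NR2F2 window 1 they mark the letters of E-boxes (CACGTG). Translated, the bases around these marks spell the receptor's own DNA-binding domain, so the marks lie in coding sequence. NR2F1 window 1 held none of the motifs searched. The counts do not show which start was used.
NR2F1 window 1: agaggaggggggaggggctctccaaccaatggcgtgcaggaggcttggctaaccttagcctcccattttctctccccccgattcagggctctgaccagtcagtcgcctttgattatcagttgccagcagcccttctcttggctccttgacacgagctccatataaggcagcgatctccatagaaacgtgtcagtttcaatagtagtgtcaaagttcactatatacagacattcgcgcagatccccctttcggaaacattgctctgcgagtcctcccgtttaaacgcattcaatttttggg
NR2F1 window 2: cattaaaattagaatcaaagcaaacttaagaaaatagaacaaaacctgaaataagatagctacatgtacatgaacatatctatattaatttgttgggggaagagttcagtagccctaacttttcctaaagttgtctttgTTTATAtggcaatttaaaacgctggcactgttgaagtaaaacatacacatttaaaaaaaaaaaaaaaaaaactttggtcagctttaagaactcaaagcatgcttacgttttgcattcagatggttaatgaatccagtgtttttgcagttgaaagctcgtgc
NR2F2 window 1: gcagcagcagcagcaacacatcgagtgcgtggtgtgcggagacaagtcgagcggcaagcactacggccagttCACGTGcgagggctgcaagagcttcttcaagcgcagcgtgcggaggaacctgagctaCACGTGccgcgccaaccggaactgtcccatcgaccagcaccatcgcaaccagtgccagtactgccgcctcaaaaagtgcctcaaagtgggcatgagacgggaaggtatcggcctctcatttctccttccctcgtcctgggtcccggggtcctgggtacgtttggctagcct
NR2F2 window 2: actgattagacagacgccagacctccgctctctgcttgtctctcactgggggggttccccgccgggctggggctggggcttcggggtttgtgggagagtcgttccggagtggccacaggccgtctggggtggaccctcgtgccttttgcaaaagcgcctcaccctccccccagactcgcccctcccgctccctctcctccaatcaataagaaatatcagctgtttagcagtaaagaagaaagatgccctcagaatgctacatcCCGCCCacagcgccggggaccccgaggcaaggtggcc

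NR2F1 had 19.1, 22.4 and 21.4 CPM in the libraries labelled antisense, against 2.54, 1.84 and 1.96 CPM in the vector control libraries. Every library labelled antisense lay far above every vector control library. This is a 9.84-fold rise, a log2 fold change of 3.30 (SE 0.14, 95% interval 2.99 to 3.61, adjusted p = 2.38e-07). NR2F2 moved the other way, with 52.2, 59.7 and 55.4 CPM in the libraries labelled antisense, against 187, 199 and 180 CPM in the vector control libraries. Here all libraries labelled antisense were the low ones, with a wide gap between the groups. NR2F2 was 3.38-fold lower, a log2 fold change of -1.76 (SE 0.08, 95% interval -1.94 to -1.58, adjusted p = 3.78e-07). Per kilobase of transcript, NR2F1 made up 22.3 ± 0.461% of the summed level of the pair in the libraries labelled antisense and 0.852 ± 0.166% in the vector control (SD, n = 3 each). With the longest matched transcript as the length, a choice made after seeing the data, these shares were 34.7 ± 0.602% in the libraries labelled antisense and 1.56 ± 0.301% in the vector control. With either length NR2F2 was the more abundant of the pair in both groups.

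NR2F2 took a large share of the summed level of the family in the vector control. Its level per kilobase was 19.5 ± 1.32 CPM per kb in the libraries labelled antisense and 66.0 ± 3.45 CPM per kb in the vector control (SD, n = 3). It took 5.66, 6.28 and 6.41% of the summed level of all 39 receptors in the libraries labelled antisense, against 18.4, 19.6 and 17.0% in the vector control libraries. With the longest transcript its share was 3.68, 4.08 and 4.21% in the libraries labelled antisense, against 12.7, 13.7 and 11.6% in the vector control libraries. That sum, with the median length, was 319 ± 15.2 CPM per kb in the libraries labelled antisense, against 361 ± 8.54 CPM per kb in the vector control. In the vector control NR2F2 and RXRA stood at the top, at 66.0 ± 3.45 and 65.6 ± 3.63 CPM per kb, and differed by less than their spread. With the longest transcript RXRA came first there and NR2F2 second, at 35.7 CPM per kb. In the libraries labelled antisense the order ran RXRA (46.2 ± 3.88 CPM per kb), NR2F6 (37.7 ± 3.18), ESRRA (28.2 ± 3.32) and NR2F2, and the same first 3 came out with the longest transcript. For RXRA and NR2F6 the median and longest lengths are the same, at 1846 and 2404 bases. The longest transcript therefore could not lower their levels in either group, and their high places were not tested by it.

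Both COUP-TF genes have a noncoding gene named as their antisense, and each of these moved in the direction of its receptor. NR2F1-AS1, a long noncoding RNA gene whose exons share 158 bases with NR2F1 on the opposite strand, had 0.996, 1.05 and 1.60 CPM in the libraries labelled antisense, against 0.0695, 0 and 0 CPM in the vector control libraries. Its log2 fold change was 5.33 (SE 0.68, adjusted p = 0.000226), from 4 counts over the vector control group. NR2F2-AS1 had 0.146, 0.0894 and 0.391 CPM in the libraries labelled antisense, against 0.538, 0.784 and 1.02 CPM in the vector control libraries (log2 fold change -1.83, SE 0.52, adjusted p = 0.0155). No source used here says if reads were counted by strand. Reads in the bases shared by NR2F1 and NR2F1-AS1 therefore cannot be told apart.

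The third COUP-type gene, NR2F6 (EAR2), was the most abundant receptor by CPM in the libraries labelled antisense. It had 93.0, 96.9 and 82.1 CPM in those libraries, against 76.2, 63.0 and 80.9 CPM in the vector control libraries. The groups came close to each other at 82.1 and 80.9 CPM. The log2 fold change was 0.30 (SE 0.11, adjusted p = 0.0359), and the call was lost without antisense library 2 (adjusted p = 0.0970), without antisense library 3 (0.115), without control library 2 (0.0689) and without control library 3 (0.0796).

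Among the testicular receptors, which repress genes with direct repeat sites, NR2C1 (TR2) rose and NR2C2 (TR4) did not pass. NR2C1 had 24.5, 26.7 and 30.4 CPM in the libraries labelled antisense, against 18.0, 18.9 and 15.9 CPM in the vector control libraries. The libraries labelled antisense were all higher (log2 fold change 0.63, SE 0.11, adjusted p = 0.00105). NR2C2 averaged 35.6 ± 0.705 CPM in the libraries labelled antisense and 36.8 ± 4.14 CPM in the vector control, with a log2 fold change of -0.05 and a 95% interval of -0.25 to 0.16. Per kilobase the share of NR2C1 in the pair was 48.1 ± 2.27% in the libraries labelled antisense, against 36.8 ± 1.82% in the vector control (SD, n = 3), and with the longest transcript 31.4 ± 1.96% against 22.4 ± 1.37%. NR2C2 shares 1197 exon bases with MRPS25 on the opposite strand, a gene at 52.2 ± 1.41 CPM in the libraries labelled antisense and 47.0 ± 0.910 CPM in the vector control. It also shares 155 with FGD5-AS1, which was higher, at 99.8 ± 3.97 CPM in the libraries labelled antisense and 72.8 ± 4.91 CPM in the vector control. NR6A1 (GCNF), a repressor best known from germ cells, had 34.1, 35.1 and 34.5 CPM in the libraries labelled antisense, against 41.5, 44.5 and 45.9 CPM in the vector control libraries. Its groups did not overlap, and the fall was small (log2 fold change -0.35, SE 0.07, adjusted p = 0.00330).

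The immediate-early receptors of the NR4A family, which cells switch on within a short time of a stimulus, were mostly low. NR4A1 (NUR77) was the abundant one, with 28.1, 30.6 and 26.3 CPM in the libraries labelled antisense, against 15.9, 13.4 and 16.3 CPM in the vector control libraries. It was higher in every library labelled antisense (log2 fold change 0.89, SE 0.10, adjusted p = 0.000107). NR4A1 shares 754 exon bases on the opposite strand with AC025259.3, a gene not analysed here. NR4A2 (NURR1) averaged 1.05 ± 0.214 CPM in the libraries labelled antisense and 0.509 ± 0.202 CPM in the vector control, without overlap of the groups (log2 fold change 1.04, SE 0.36, adjusted p = 0.0342). This call was lost with DESeq2 (adjusted p = 0.0589) and without antisense library 2, 3 or 4 or control library 4 (adjusted p = 0.0625, 0.0522, 0.129 and 0.0876). NR4A3 (NOR1) was too low to be tested, with 0, 3 and 5 counts in the libraries labelled antisense, against 11, 20 and 14 in the vector control libraries. Its counts lay on the other side from NR4A1 and NR4A2, with the libraries labelled antisense low.

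NR5A2 (LRH-1), an intestinal and hepatic receptor of bile acid and steroid synthesis genes, had 38.5, 39.5 and 40.5 CPM in the libraries labelled antisense, against 31.5, 36.2 and 30.0 CPM in the vector control libraries. The libraries labelled antisense were higher by a small step (log2 fold change 0.28, SE 0.09, adjusted p = 0.0240). Leaving out antisense library 2, 3 or 4 or control library 2 or 4 ended the call (adjusted p = 0.0501, 0.0675, 0.0734, 0.0880 and 0.0745). ESRRA, an estrogen-related receptor that drives mitochondrial genes with its PGC-1 partners, did not pass, at 62.6 ± 7.37 CPM in the libraries labelled antisense and 58.6 ± 6.29 CPM in the vector control (log2 fold change 0.09, 95% interval -0.16 to 0.34). ESRRA shares 284 exon bases on the opposite strand with TRMT112, a gene at 101 ± 13.7 CPM in the libraries labelled antisense and 80.9 ± 18.9 CPM in the vector control. Its relative ESRRG had 11.0, 11.3 and 13.1 CPM in the libraries labelled antisense, against 14.3, 18.0 and 13.8 CPM in the vector control libraries. All libraries labelled antisense were lower, though 13.1 lay close to 13.8 CPM (log2 fold change -0.38, SE 0.12, adjusted p = 0.0274). The ESRRG call was lost without antisense library 2 or 3 (adjusted p = 0.0947 and 0.0945) and without control library 3 (0.0713).

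**Figure D2:**
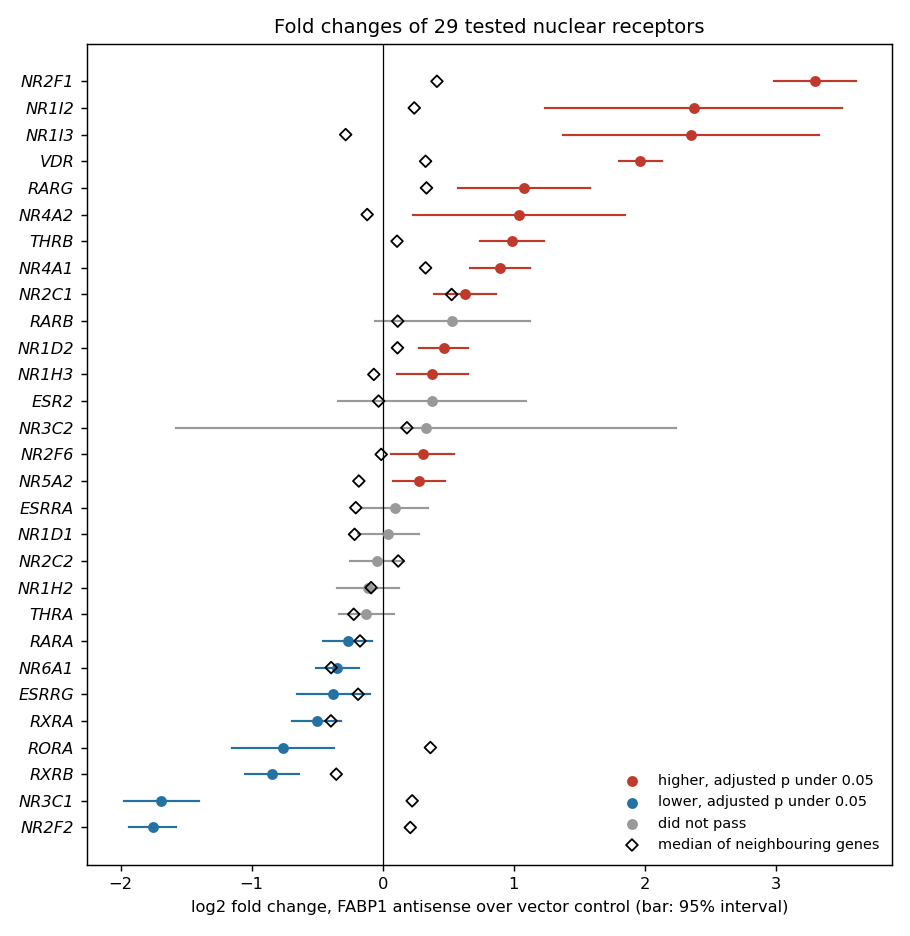
Log2 fold change of each tested receptor, libraries labelled FABP1 antisense over vector control, with its 95% interval and, as an open diamond, the median log2 fold change of its neighbours in gene order. The values run from 3.30 for NR2F1 to -1.76 for NR2F2, and the diamonds run from -0.40 to 0.53.

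Of the 10 ligand receptors that pair with RXR, all were tested, and 6 were higher, 1 lower and 3 did not pass, beside 27.7% higher and 27.3% lower among all genes. VDR (gene ID 7421), the vitamin D receptor that governs calcium uptake in enterocytes, changed most among the abundant ones. It had 84.1, 85.1 and 78.9 CPM in the libraries labelled antisense, against 20.5, 21.7 and 21.4 CPM in the vector control libraries. All libraries labelled antisense were well above all vector control libraries, with little spread in either group. VDR was 3.90-fold higher, a log2 fold change of 1.96 (SE 0.07, 95% interval 1.80 to 2.13, adjusted p = 1.19e-07). Per kilobase VDR stood at 17.8 ± 0.716 CPM per kb in the libraries labelled antisense and 4.57 ± 0.140 CPM per kb in the vector control.

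The thyroid hormone receptor genes parted. THRB, the receptor form prominent in liver and in hormone feedback, had 45.2, 47.7 and 47.5 CPM in the libraries labelled antisense, against 22.3, 27.7 and 20.9 CPM in the vector control libraries. Its groups did not overlap (log2 fold change 0.99, SE 0.11, adjusted p = 9.24e-05). THRA, the form prominent in intestine, had 46.4, 43.7 and 37.3 CPM in the libraries labelled antisense, against 44.9, 45.4 and 48.6 CPM in the vector control libraries, and did not pass (log2 fold change -0.13, 95% interval -0.34 to 0.09). The share of THRB in the pair, per kilobase, was 28.5 ± 2.74% in the libraries labelled antisense, against 15.5 ± 2.32% in the vector control (SD, n = 3), and with the longest transcript 42.3 ± 3.27% against 25.2 ± 3.33%. THRB-AS1, whose exons share 42 bases with THRB on the opposite strand, was also higher, at 0.532 ± 0.179 CPM in the libraries labelled antisense and 0.130 ± 0.102 CPM in the vector control (log2 fold change 2.09, adjusted p = 0.0116).

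Retinoic acid receptors likewise differed among themselves. RARG, the form prominent in squamous epithelia, had 3.98, 2.50 and 3.34 CPM in the libraries labelled antisense, against 1.67, 1.27 and 1.70 CPM in the vector control libraries. The libraries labelled antisense were all higher, with a wide spread among them (log2 fold change 1.08, SE 0.22, adjusted p = 0.00332). RARA, the broadly expressed form, had 24.5, 23.0 and 22.6 CPM in the libraries labelled antisense, against 26.8, 27.0 and 30.6 CPM in the vector control libraries. It was slightly lower in every library labelled antisense (log2 fold change -0.27, SE 0.08, adjusted p = 0.0232), a call lost without antisense library 3 or 4 or control library 4 (adjusted p = 0.0697, 0.0726 and 0.0665). RARA shares 556 exon bases with RARA-AS1 on the opposite strand, at 1.16 to 1.26 CPM in the libraries labelled antisense and 0.490 to 1.09 CPM in the vector control. RARB, which is itself induced by retinoic acid, had 1.16 ± 0.213 CPM in the libraries labelled antisense and 0.807 ± 0.118 CPM in the vector control (log2 fold change 0.53, SE 0.26, adjusted p = 0.114). Its groups did not overlap, and it did not pass the test. RARG made up 11.0 ± 1.98% of RARG plus RARA per kilobase in the libraries labelled antisense, against 4.66 ± 0.616% in the vector control.

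RARB carries a known retinoic acid response element, a spaced direct repeat through which the receptors raise their own gene. The RefSeq window at chr3:25428013-25428312 (GRCh38.p14, plus strand) holds it and is shown because it is the only receptor window with that motif. Capitals mark the repeat, searched on both strands as GGTTCA and AGTTCA with any 5 bases between them. The repeat occurred in 6 of 35116 windows of the same length, or 0.0171%. The letters searched are those of the RARB element itself, so the match in RARB was fixed in advance. Repeats of this spacing with other letters were not searched.
RARB window 3: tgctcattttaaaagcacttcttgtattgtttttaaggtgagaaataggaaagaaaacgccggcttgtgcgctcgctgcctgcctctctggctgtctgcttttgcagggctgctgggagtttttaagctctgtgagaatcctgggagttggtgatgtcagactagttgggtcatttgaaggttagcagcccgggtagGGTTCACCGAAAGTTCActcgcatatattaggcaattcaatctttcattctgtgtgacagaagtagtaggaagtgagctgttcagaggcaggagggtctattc

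The liver X receptors sense oxysterols and raise genes of cholesterol efflux. NR1H3 (LXR alpha) had 33.0, 32.5 and 27.9 CPM in the libraries labelled antisense, against 24.0, 20.3 and 27.5 CPM in the vector control libraries. The nearest values of the groups, 27.9 and 27.5 CPM, almost touched (log2 fold change 0.38, SE 0.12, adjusted p = 0.0254). The call was lost without antisense library 2 or 3 (adjusted p = 0.0861 and 0.0743) and without control library 2 or 3 (0.0765 and 0.0679). NR1H2 (LXR beta) did not pass, at 24.6 ± 3.31 CPM in the libraries labelled antisense and 26.6 ± 0.758 CPM in the vector control (log2 fold change -0.11, 95% interval -0.35 to 0.12). NR1H3 shares 189 exon bases with ACP2 on the opposite strand, and ACP2 was lower, at 25.5 ± 1.63 CPM in the libraries labelled antisense and 36.9 ± 3.09 CPM in the vector control.

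The xenobiotic receptors NR1I2 (PXR) and NR1I3 (CAR), which switch on genes that clear drugs, rose from very low levels. NR1I2 ranged from 0.246 to 0.444 CPM in the libraries labelled antisense and from 0.0490 to 0.0932 CPM in the vector control, on 54 and 10 counts. Its log2 fold change was 2.37 (SE 0.50, adjusted p = 0.00358). NR1I3 ranged from 0.340 to 0.470 CPM in the libraries labelled antisense and from 0.0699 to 0.0868 CPM in the vector control, on 58 and 11 counts (log2 fold change 2.35, SE 0.43, adjusted p = 0.00168). Neither gene's groups overlapped. NR1I3 shares 661 exon bases with TOMM40L on the opposite strand, a gene at 81.6 ± 3.98 CPM in the libraries labelled antisense and 78.0 ± 5.76 CPM in the vector control. The part of TOMM40L reads in the NR1I3 count was not tested.

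The RXR partners themselves fell. RXRA (gene ID 6256), the main RXR of liver and intestine, had 84.0, 93.0 and 78.8 CPM in the libraries labelled antisense, against 117, 117 and 129 CPM in the vector control libraries. RXRB had 32.9, 32.9 and 29.0 CPM in the libraries labelled antisense, against 53.9, 54.1 and 62.1 CPM in the vector control libraries. For each gene all libraries labelled antisense were the lower ones. The log2 fold change was -0.51 for RXRA (SE 0.08, adjusted p = 0.000883) and -0.84 for RXRB (SE 0.09, adjusted p = 7.69e-05). RXRG, the form of muscle and brain, had 0 counts in all 6 libraries. RXRB shares 244 exon bases with the zinc transporter gene SLC39A7 on the opposite strand, and SLC39A7 was lower as well, at 146 ± 6.50 CPM in the libraries labelled antisense and 201 ± 15.9 CPM in the vector control.

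**Figure D3:**
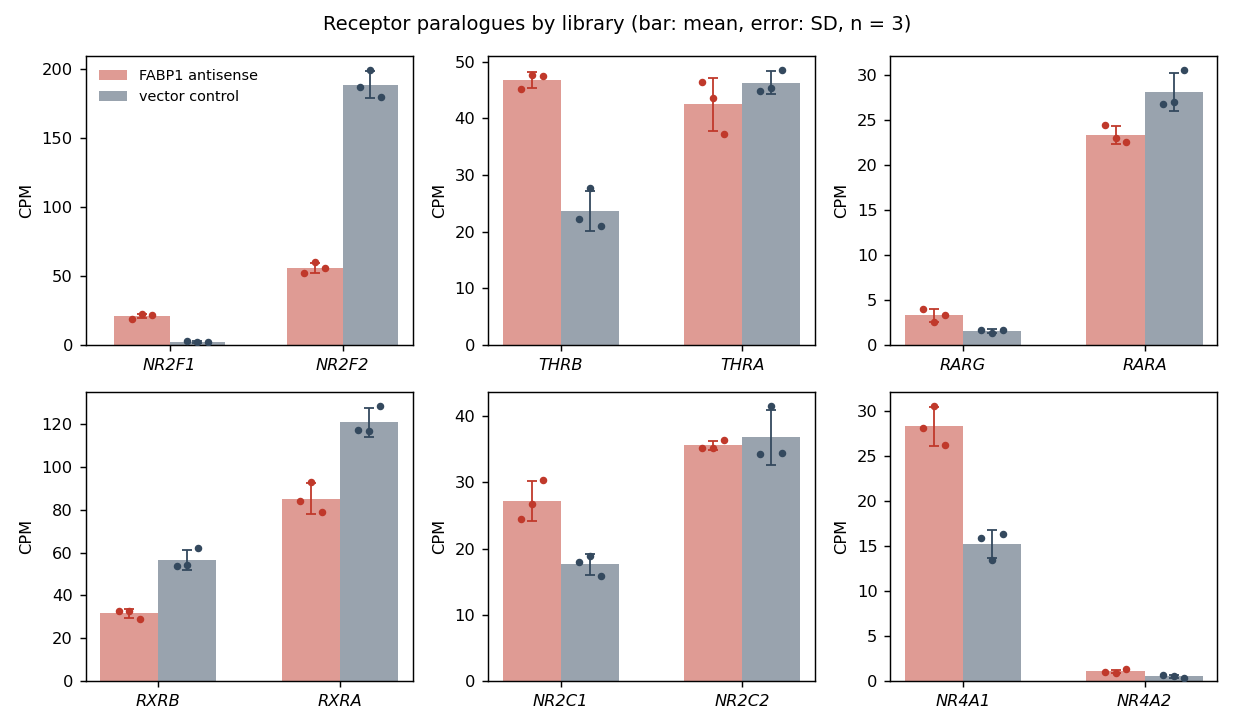
CPM of 6 pairs of related receptors, with libraries labelled FABP1 antisense left of vector control, bars for means, error bars for the SD of 3 libraries and points for libraries. NR2F1 is higher and NR2F2 lower, THRB, RARG, NR2C1, NR4A1 and NR4A2 are higher, and RXRA and RXRB lower, in the libraries labelled antisense, with the call of NR4A2 lost in some fits.

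Clock-linked receptors repress (REV-ERB) or activate (ROR) the same DNA sites in the circadian loop. NR1D2 (REV-ERB beta) had 31.2, 34.1 and 33.1 CPM in the libraries labelled antisense, against 22.9, 25.7 and 22.6 CPM in the vector control libraries. The libraries labelled antisense were all higher (log2 fold change 0.47, SE 0.08, adjusted p = 0.00145). NR1D1 (REV-ERB alpha) did not pass, at 11.2 ± 0.269 CPM in the libraries labelled antisense and 10.8 ± 1.22 CPM in the vector control (log2 fold change 0.04, 95% interval -0.19 to 0.27). NR1D1 and THRA share 263 exon bases on opposite strands, so reads there cannot be told apart. RORA had 8.35, 6.93 and 9.40 CPM in the libraries labelled antisense, against 14.5, 16.7 and 10.7 CPM in the vector control libraries. Every library labelled antisense was lower, and the vector control libraries spread widely (log2 fold change -0.76, SE 0.17, adjusted p = 0.00514). RORA shares 564 exon bases with RORA-AS1 on the opposite strand, at 0.812 ± 0.130 CPM in the libraries labelled antisense and 0.539 ± 0.124 CPM in the vector control. RORB had 0 counts in all libraries.

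REV-ERB genes are known to be driven by CLOCK and BMAL1 through E-boxes. The second RefSeq window of NR1D2, chr3:23945871-23946170 (GRCh38.p14, plus strand), is shown because it holds a pair of E-boxes. Capitals mark 2 E-boxes (CACGTG) and 4 GC boxes (GGGCGG or its reverse complement).
NR1D2 window 2: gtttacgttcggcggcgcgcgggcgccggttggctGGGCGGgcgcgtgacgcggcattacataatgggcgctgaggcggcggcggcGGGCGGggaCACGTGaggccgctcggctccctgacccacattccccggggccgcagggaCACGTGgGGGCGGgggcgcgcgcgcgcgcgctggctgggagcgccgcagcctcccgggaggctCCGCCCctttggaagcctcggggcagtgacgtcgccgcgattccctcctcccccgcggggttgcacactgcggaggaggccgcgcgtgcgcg

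Promoter windows were found for 36 of the 39 receptors, 84 windows in all. VDR was one of those with none. The E-box CACGTG was in 9 receptor windows, of 7 genes, or 10.7%, against 7.26% of all 35116 windows. NR2F2 was counted there only for its window 1, where the match lies in coding sequence. The GC box GGGCGG was in 52.4% of receptor windows and 45.0% of all windows, and the TATA box TATAAA in 7.14% and 11.5%. AGGTCA, the core hexamer that many receptors bind, was in 14.3% of receptor windows and 13.8% of all windows. Its direct repeat with any 1 base between the copies, which contains the hexamer, was in 0 receptor windows and 8 windows in all. The glucocorticoid element, AGAACA and TGTTCT with any 3 bases between them, was in 0 receptor windows and 1 window in all. Both strands were searched, and a match is a description of letters, not a site.

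Among steroid receptors NR3C1 stood out. NR3C1 (gene ID 2908), the glucocorticoid receptor, had 6.27, 7.85 and 8.32 CPM in the libraries labelled antisense, against 23.2, 27.2 and 22.2 CPM in the vector control libraries. The groups lay far apart, with the libraries labelled antisense low. NR3C1 was 3.23-fold lower, a log2 fold change of -1.69 (SE 0.13, 95% interval -1.98 to -1.40, adjusted p = 9.00e-06). The mineralocorticoid receptor gene NR3C2 averaged 0.214 ± 0.189 CPM in the libraries labelled antisense and 0.172 ± 0.0859 CPM in the vector control and did not pass (adjusted p = 0.763). ESR2, the estrogen receptor beta gene of colon epithelium, also did not pass, at 0.718 ± 0.138 CPM in the libraries labelled antisense and 0.548 ± 0.142 CPM in the vector control (log2 fold change 0.38, 95% interval -0.34 to 1.09). ESR1, estrogen receptor alpha, had 2 counts over the libraries labelled antisense and 0 over the vector control, and the progesterone receptor gene PGR had 0 in all.

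The remaining receptors were at or near the detection limit. RORB, RXRG, the photoreceptor gene NR2E3, PGR and the adrenal and gonadal repressor gene NR0B1 had 0 counts in every library. ESRRB had 3 counts over the libraries labelled antisense and 3 over the vector control. NR5A1 (SF-1), the adrenal and gonadal relative of NR5A2, had 6 and 0. NR2E1, a neural stem cell receptor, had 26 counts over the libraries labelled antisense and 15 over the vector control. These counts were too few for ESR1, ESRRB, NR5A1 and NR2E1 to enter the test.

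Each receptor was also set beside the median log2 fold change of up to 50 expressed genes on either side of it in gene order. For the 21 called receptors these medians ran from -0.40 to 0.53. In 5 of them, RXRA, NR6A1, NR2C1, RARA and ESRRG, the receptor's 95% interval held the neighbours' median. RXRA changed by -0.51 beside a median of -0.40, NR6A1 by -0.35 beside -0.39, and NR2C1 by 0.63 beside 0.53. For 8 others the neighbours had the opposite sign, among them NR2F2 (median 0.21), NR3C1 (0.22) and RORA (0.36). VDR and NR2F1 exceeded medians of 0.33 and 0.41, and RXRB one of -0.36. Whether fold changes are shared along stretches of the gene order, and the part of this in the receptors' changes, was not tested.

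Ligand-handling and target genes were read from 9 lists, and genes of coregulators and chaperones from 2 more. In each list the members called are to be read beside the 27.7% and 27.3% of all genes that were higher and lower. Retinoid genes split, with 6 of 16 tested higher and 5 lower (median log2 fold change 0.25). CRABP2, which carries retinoic acid to its receptors, had 7.19, 7.69 and 9.14 CPM in the libraries labelled antisense, against 74.0, 65.9 and 47.2 CPM in the vector control libraries. It was low in all libraries labelled antisense (log2 fold change -2.96, SE 0.17). STRA6, the retinol-uptake receptor gene, and DHRS3, a retinaldehyde reductase induced by retinoic acid, were lower, with log2 fold changes of -1.38 and -0.85. RBP2, the intestinal retinol carrier, averaged 67.4 ± 4.61 CPM in the libraries labelled antisense and 37.6 ± 4.79 CPM in the vector control (log2 fold change 0.84, SE 0.10).

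Vitamin D genes split as well. Of 11 tested, 4 were higher, 5 lower and 2 did not pass, with a median of -0.19. TXNIP, a thioredoxin inhibitor induced by vitamin D and by glucose, was at 103 ± 4.31 CPM in the libraries labelled antisense and 34.0 ± 0.783 CPM in the vector control (log2 fold change 1.60). CD14, a monocyte receptor for bacterial lipopolysaccharide, KLK6, a secreted protease, and LRP2 (megalin), which takes up vitamin D with its carrier, were lower, with log2 fold changes of -2.38, -2.21 and -0.90. CYP24A1, the vitamin D inactivating enzyme and a classic VDR target, had 0.0486, 0.0447 and 0 CPM in the libraries labelled antisense, against 0.712, 1.00 and 0.815 CPM in the vector control libraries. Its level was low in both groups and lower in all libraries labelled antisense (log2 fold change -4.76, SE 0.60, adjusted p = 0.000205, on 4 and 117 counts). CYP24A1 falls below the level set for naming list genes and was chosen after its values were seen. The other called genes of this list were likewise named after their values were seen. ATP2B1 was higher, at 120 ± 8.64 CPM in the libraries labelled antisense and 84.3 ± 12.1 CPM in the vector control. Its log2 fold change was 0.51. GC and CYP3A4, both under 1 CPM in each group, were higher by 3.13 and 2.70. CUBN, also under 1 CPM, was lower (log2 fold change -1.66).

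Of 8 tested thyroid hormone genes 2 were higher and 4 lower, with a median of -0.22. TTR, the thyroxine carrier transthyretin, had 72.5, 62.8 and 60.6 CPM in the libraries labelled antisense, against 197, 166 and 188 CPM in the vector control libraries (log2 fold change -1.49, SE 0.10). ME1, malic enzyme, and SLC16A10, a thyroid hormone transporter, were lower (log2 fold changes -0.80 and -0.47), and ALPI, the intestinal alkaline phosphatase, was higher by 0.45.

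Liver X receptor targets gave 4 higher, 1 lower and 6 that did not pass of 11, with a median of -0.02. SMPDL3A, a phosphodiesterase gene, rose most, with 8.45 ± 0.327 CPM in the libraries labelled antisense and 2.39 ± 0.360 CPM in the vector control (log2 fold change 1.82, SE 0.14). PLTP, a phospholipid transfer protein, and MLXIPL, a carbohydrate-responsive factor, were higher by 0.88 and 0.70, and APOE fell by 0.69.

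Xenobiotic receptor targets had 6 of 14 higher, 2 lower and 6 that did not pass, with a median of 0.40. CYP3A5, a drug-oxidising enzyme, averaged 47.3 ± 1.78 CPM in the libraries labelled antisense and 24.6 ± 4.13 CPM in the vector control (log2 fold change 0.94), and ALAS1, the first enzyme of heme synthesis, was higher by 0.68. ABCB1, the drug efflux pump, went the other way, with 81.0, 82.2 and 84.7 CPM in the libraries labelled antisense, against 211, 209 and 194 CPM in the vector control libraries. All libraries labelled antisense were low for ABCB1 (log2 fold change -1.31, SE 0.07, adjusted p = 8.27e-07), and GSTA1 fell by 0.54. Below the level set for naming, and chosen after their values were seen, CYP2B6, CYP3A4 and CYP2C19 were higher by 3.54, 2.70 and 2.43 on the log2 scale. CYP3A4 averaged 0.376 ± 0.0341 CPM in the libraries labelled antisense and 0.0511 ± 0.0521 CPM in the vector control. CYP2B6 averaged 1.17 ± 0.103 and 0.0961 ± 0.0242 CPM in those groups. CYP2C19, CYP3A4 and CYP3A5 have close relatives with which their reads could be split. The related gene CYP3A7 had 0, 246 and 0 counts in the libraries labelled antisense, against 82, 0 and 38 in the vector control libraries.

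**Figure D4:**
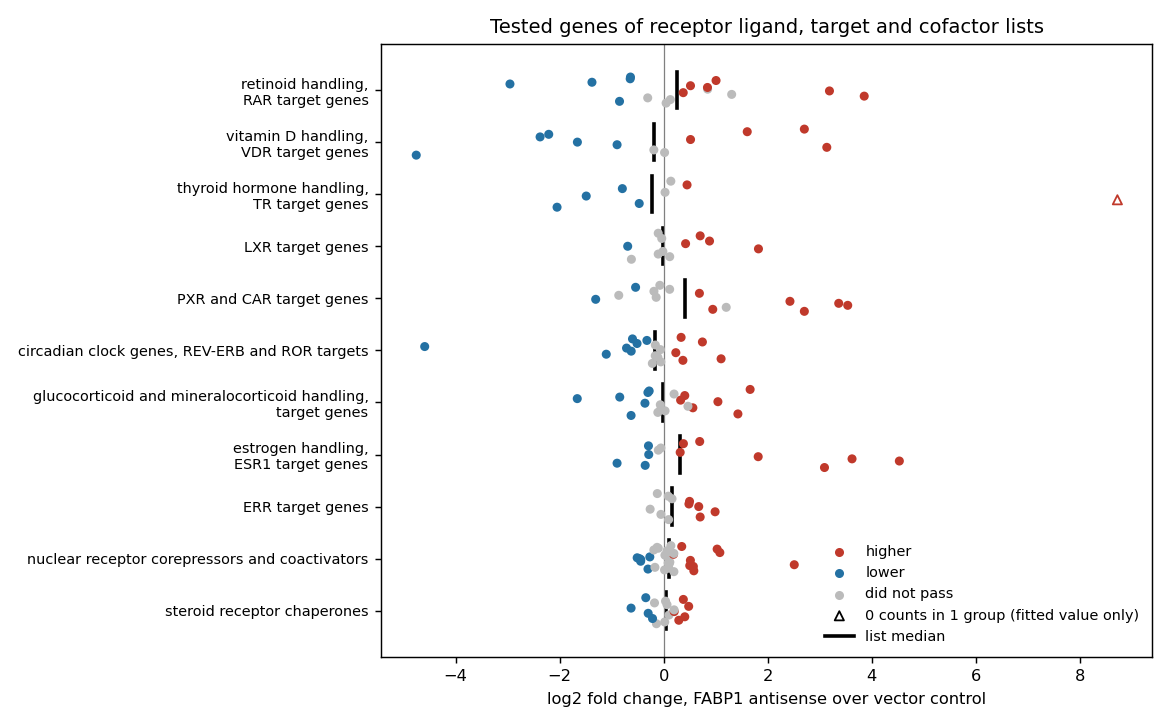
Log2 fold changes of the tested genes in 11 lists of receptor ligand handling, targets and cofactors, libraries labelled FABP1 antisense over vector control, with a black bar at each list's median and an open triangle for a gene with 0 counts in the vector control, whose fitted value is no estimate of size. Points lie on both sides of 0 in most lists, and the ERR list has no gene called lower.

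Of 18 tested clock genes and REV-ERB or ROR targets, 5 were higher, 7 lower and 6 did not pass, with a median of -0.16. HLF, an output factor of the clock, had 0.437, 0.492 and 0.533 CPM in the libraries labelled antisense, against 11.5, 13.5 and 10.8 CPM in the vector control libraries. All libraries labelled antisense were far below all vector control libraries (log2 fold change -4.60, SE 0.16, adjusted p = 8.52e-08). PER3, a clock repressor, fell by 1.11, while NPAS2, a partner of BMAL1, and BHLHE40, another clock repressor, were higher by 1.10 and 0.74. The count of higher clock genes was 2 without antisense library 3 or 4 or control library 2 or 4 and 3 without antisense library 2.

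Glucocorticoid and mineralocorticoid genes were even, with 6 higher, 6 lower and 6 that did not pass of 18 (median -0.02). FKBP5, a chaperone and glucocorticoid target, had 36.2, 34.5 and 37.0 CPM in the libraries labelled antisense, against 56.0, 58.6 and 52.0 CPM in the vector control libraries (log2 fold change -0.63, SE 0.08). MT2A, a metallothionein, fell by 1.66. In contrast, TSC22D3 (GILZ), a widely used glucocorticoid target, ANXA1 and DDIT4 were higher by 1.42, 1.66 and 1.04. TSC22D3 averaged 3.17 ± 0.329 CPM in the libraries labelled antisense and 1.17 ± 0.128 CPM in the vector control.

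Of 13 tested estrogen-linked genes, 7 were higher and 4 lower (median 0.31), in cells where ESR1 had at most 2 counts in a group. This is 84.6% called, against 55.0% of all genes. CA12, a carbonic anhydrase, averaged 17.8 ± 1.53 CPM in the libraries labelled antisense and 0.766 ± 0.183 CPM in the vector control (log2 fold change 4.53, SE 0.17). MYB, a progenitor transcription factor, had 28.7, 30.7 and 30.5 CPM in the libraries labelled antisense, against 2.19, 2.79 and 2.38 CPM in the vector control libraries. It was high in every library labelled antisense (log2 fold change 3.62, SE 0.11). TFF1, a trefoil peptide, and IGFBP4 were higher by 3.09 and 1.81. The 4 lower ones, named after their values were seen, were XBP1 (-0.90), CTSD (-0.36), HSD17B4 (-0.29) and PDZK1 (-0.29). XBP1 averaged 57.7 ± 1.14 CPM in the libraries labelled antisense and 108 ± 3.50 CPM in the vector control. The CTSD call was lost without antisense library 4 or control library 4. Targets of the estrogen-related receptors had 5 of 11 higher and 0 lower (median 0.16). IDH3A, CYCS, ATP5B and CS, all of mitochondrial energy metabolism, were higher by 0.99, 0.70, 0.67 and 0.49.

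Cofactor genes were called at 48.4%, near the share of all genes. Of 31 tested corepressor and coactivator genes, 9 were higher, 6 lower and 16 did not pass (median 0.09). NSD1, a histone methyltransferase that binds receptors, stood apart, with 27.1, 26.7 and 32.6 CPM in the libraries labelled antisense, against 5.64, 5.46 and 4.05 CPM in the vector control libraries. Its groups did not overlap (log2 fold change 2.51, SE 0.14, adjusted p = 1.52e-06). KAT2B, a histone acetyltransferase, and PPARGC1B, a coactivator of the estrogen-related receptors, were higher by 1.08 and 1.03. The 6 lower ones, named after their values were seen, were NCOA7 (-0.51), NCOA6 (-0.47), NCOA3 (-0.44), NCOA5 (-0.44), TBL1X (-0.30) and EP300 (-0.27). The EP300 call was lost in 10 of 12 alternative fits. Among the higher ones, the calls of CARM1 and LCOR were lost in 5 and 4 of 12. Of 16 chaperone genes of steroid receptors, 5 were higher, 4 lower and 7 did not pass (median 0.05), with PPID, DNAJA1 and BAG1 higher by 0.48, 0.40 and 0.38. The 4 lower ones were FKBP5 (-0.63), UNC45A (-0.35), STIP1 (-0.30) and HSPA8 (-0.22), of which the last 3 were named after their values were seen. The UNC45A call was lost without antisense library 3 or 4 or control library 4.

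Markers of other cell types were low but also moved. Fibroblast and stromal markers summed to 32.3 to 36.2 CPM in the libraries labelled antisense and 39.7 to 42.6 CPM in the vector control, with COL1A2, DCN and THY1 at 0 in every library. Of 6 tested, 3 were higher and 2 lower. LUM stood at 18.1 ± 1.87 CPM in the libraries labelled antisense and 0.133 ± 0.0873 CPM in the vector control, and PDGFRA at 0.386 ± 0.285 and 22.7 ± 3.49 CPM in those groups. Leukocyte markers summed to 63.9 to 67.2 CPM in the libraries labelled antisense and 44.4 to 48.6 CPM in the vector control, with 3 of 5 higher and 1 lower and PTPRC and MS4A1 among those at 0. Most of that sum was CD68, at 33.7 ± 1.40 and 20.8 ± 1.32 CPM in those groups, and LYZ, at 25.4 ± 0.0636 and 12.3 ± 0.857 CPM. The lower gene was CD14, at 2.46 ± 0.239 and 12.8 ± 1.41 CPM. Endothelial markers summed to 2.39 to 2.67 CPM in the libraries labelled antisense and 0.833 to 1.42 CPM in the vector control, with both tested genes higher and CDH5, KDR, TEK and CLDN5 at 0. Among epithelial markers 6 of 11 were higher and 2 lower. LGALS4 and KRT20, genes of mature intestinal epithelium, were higher by 4.77 and 3.17, and CDX2, an intestinal identity factor, by 1.09. The 2 lower ones were named after their values were seen. KRT19, an epithelial keratin, stood at 985 ± 107 CPM in the libraries labelled antisense and 1398 ± 203 CPM in the vector control (-0.51), and VIL1, the microvillus protein villin, at 441 ± 19.5 and 507 ± 33.1 CPM (-0.20). The VIL1 call was lost in 5 of the 6 fits that left out 1 library, all but that without control library 3. Among the higher epithelial markers, the calls of CDH1 (0.20) and KRT18 (0.27) were each lost in 5 of 12 alternative fits. The call of the stromal marker VIM (0.98) was lost in 8 of 11, and that of the endothelial marker VWF (2.85) in 3 of 11. EPCAM and KRT8, at 684 ± 36.9 and 9447 ± 1067 CPM in the libraries labelled antisense and 721 ± 48.2 and 8666 ± 990 CPM in the vector control, did not pass. The part of all these markers in the receptors' changes was not tested.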

How the data were processed

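PolyA RNA of Caco-2 cells was sequenced in 3 libraries of cells carrying hFABP1as and 3 of cells carrying pcDNA3. Per the labels' protocols, TRIzol was used to extract RNA and a TruSeq stranded kit to make libraries. Tools named in the submitters' processing notes, with no role or order, are HISAT2 2.1.0, StringTie 1.3.4d, Bowtie2 2.3.4.1, Trimmomatic 0.38 and bcl2fastq, and the build is GRCh37. No source used here says if reads were counted by strand.

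The deposited table holds read counts per gene, not normalized by the authors. The other 12 per-library columns (FPKM and TPM, per the file headers) were not used. Headers number the libraries 2, 3 and 4 while labels use 1, 2 and 3, so columns were matched to groups only, and libraries are named by header number. Libraries of a group differed by more than counting noise, and each was taken as 1 replicate.

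Counts of all genes were filtered with filterByExpr, scaled by TMM and tested with edgeR 4.0.16 (quasi-likelihood, R 4.3.3), with Benjamini-Hochberg adjustment over 14640 genes and a threshold of 0.05. CPM used TMM library sizes. Each SE was derived from the log2 fold change and the F statistic of its test. Alternatives used DESeq2 1.42.0, other scalings and filters, a replicate block and leaving out each library. Levels per kilobase used the median length of GENCODE 29 transcripts matched by RefSeq accession, and exon overlaps came from GENCODE 29. Gene order and promoter windows came from RefSeq (GRCh38.p14), and coordinates are given for the windows only. Neighbours needed a mean log2 CPM of 3 or more. The test was checked on simulated data, where it recovered 35.6% of 1.5-fold, 83.6% of 2-fold and 98.4% of 4-fold changes. A gene that did not pass may therefore still have changed by a small step. In that simulation 14278 genes were left unchanged, unlike in these data, where 55.0% of genes were called. Python 3.11.15 with pandas 2.3.3, numpy 2.4.6, scipy 1.17.1 and matplotlib 3.10.9 was used for the rest.

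The members and the 15 gene lists were chosen with earlier results of these data known. Per-library values are given for called receptors whose mean log2 CPM is 0 or more, and from each list up to 4 called genes with the largest changes and a mean log2 CPM of 1 or more. A few list genes that this rule picks are not reported.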

Additional observations from a re-analysis of the deposited data

How the results depend on the processing

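Under the 12 alternatives to the main analysis (other scalings and filters, DESeq2, a replicate block, and leaving out each library) no called receptor changed sign, and 15 of the 21 calls, 9 higher and 6 lower, held wherever a value was obtained. The other 6 (RARA, NR1H3, NR2F6, ESRRG, NR4A2 and NR5A2), all with small changes or few reads, lost their call in at least 1 fit; the cause was not tested. With 1 library left out, 9 to 11 receptors were higher and 7 to 9 lower. Over all genes, 3510 to 4108 were higher and 3449 to 3951 lower in those fits. Libraries of the same header number did not deviate together (correlations across genes of 0.038, -0.154 and -0.253), so the numbers were not taken to pair them. With the replicate block 9 receptors were higher and 6 lower, and over all genes 3355 and 3306. It ended the calls of the 6 genes named above and of no other receptor. With DESeq2, 12 receptors were higher and 9 lower, of 32 with an adjusted p, and over all genes 4163 and 3954 of 17385. Requiring a mean of at least 1 CPM left 23 receptors tested, 10 higher and 8 lower, beside 3689 and 3677 of 12742 genes. Without a filter on low counts 13 of 34 were higher and 9 lower, beside 4004 and 3958 of 19228 genes. The mean CPM filter also left fewer list genes tested: 3 retinoid genes higher, 2 vitamin D genes higher and 3 lower, 1 thyroid gene higher and 3 xenobiotic receptor targets higher. Without antisense library 3, 4 xenobiotic receptor targets were lower. With the block, 2 clock genes were higher. Scaling moved the median log2 fold change of all genes to at most 0.02. Depth limits the statements on ESR1, ESRRB, NR5A1, NR2E1, NR4A3, NR1I2 and NR1I3, which rest on few reads.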
